A study of Homo sapiens with 6 samples.

Results

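The transcripts described here encode 9 proteins that make, salvage or degrade deoxynucleoside triphosphates (dNTPs), the building blocks of DNA: the ribonucleotide reductase subunits RRM1, RRM2 and RRM2B, the dNTP hydrolase SAMHD1, and TYMS, TK1, DUT, DCK and DCTD. They were taken by name and matched to the Ensembl identifiers of the count table, which lists 63677 genes. All 9 were found, and all 9 were among the 21729 genes that passed the filter of more than 10 counts in total. RNA was measured in UWB1.289, an ovarian carcinoma line that the study describes as BRCA1-deficient and whose genotype the sample labels give as WT. Cells received 4 µM Olaparib, an inhibitor of poly(ADP-ribose) polymerases, or the solvent DMSO alone, and were collected after 24 h, with 3 samples per condition in this 1 cell line. The series' design line states 10 µM in place of the 4 µM given by the sample labels and the treatment protocol. The study's methods describe 3 dishes and 3 independent replicates per condition. The labels do not tie samples to dishes, and p-values measure the spread between these samples.

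Ribonucleotide reductase converts ribonucleotides into deoxyribonucleotides and is built from the large subunit RRM1 with a small subunit, either RRM2, which is abundant in S phase and degraded afterwards, or RRM2B, a p53 target that serves cells outside S phase. TYMS makes thymidylate from dUMP, DCTD supplies dUMP from dCMP, and DUT removes dUTP and so keeps uracil out of DNA. TK1 and DCK phosphorylate salvaged thymidine and deoxycytidine, whereas SAMHD1 cleaves dNTPs, is induced by interferon in some cells, and also acts at stalled replication forks. Several of these genes are transcribed mainly in cells that enter or pass through S phase.

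Total counts per library lay between 35360458 and 39640775, and the trimmed-mean (TMM) scaling factors between 0.995 and 1.01. Replicates of each condition differed by more than sampling noise, with chi-square per degree of freedom from 1.81 to 4.11 over 15525 genes, so each library was kept as 1 sample. Of 12 ovarian carcinoma and epithelial markers, 10 had more than 10 counts, while WT1 and ESR1 did not. Those 10 summed to 12976 to 13421 CPM (counts scaled to a common library size) in DMSO and 13155 to 13832 in Olaparib samples. Of 9 leukocyte markers, the 6 with more than 10 counts summed to 2.96 to 3.58 CPM in DMSO and 3.45 to 4.06 CPM in Olaparib samples. CD2 was at 0 in all 6 libraries. With the same filter, 3 of 6 fibroblast markers summed to at most 49.4 CPM in any library. For endothelial markers, 3 of 4 summed to at most 48.2 CPM, and LUM and PECAM1 were at 0. Of the marker genes, VWF on the endothelial list (67.4 against 41.8 normalized counts, log2 fold change 0.68, adjusted p = 0.0106, edgeR) and PAX8 on the epithelial list (12272 against 11432, 0.10, adjusted p = 0.0399) were called higher after Olaparib, and none was called lower. CDH5, the most abundant endothelial marker, averaged 1526 normalized counts after Olaparib against 1607 in DMSO, without a call (-0.075, adjusted p = 0.442). Of the 10 tested epithelial markers, 5 were higher and 0 lower at an unadjusted p under 0.05, and the part of these marker differences in the results below was not tested.

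After Olaparib, SAMHD1 mRNA rose and RRM2 and DCK mRNA fell, each by an estimate of less than 1.2-fold, while no difference was called for the other 6 transcripts. By the quasi-likelihood F test of edgeR, with p-values adjusted over all genes by the Benjamini-Hochberg method, 3 of the 9 had an adjusted p under 0.05, 1 higher and 2 lower, where 3.36% of all genes tested were called (2.15% higher and 1.21% lower). None of the 9 also exceeded an absolute log2 fold change of log2(1.2), the additional condition that 1.21% of all genes met. The same 3 transcripts were those whose Olaparib and DMSO samples did not overlap, where 19.3% of all genes did not overlap (10% higher after Olaparib and 9.29% lower). Because well-counted genes are called more often, both shares were also taken over the 8881 genes with a mean of at least 500 normalized counts, a limit set after the results were seen. There 5.87% were called and 25.7% did not overlap. An exact permutation test of 3 against 3 samples cannot go below p = 0.1, two-sided, which is the value that SAMHD1, RRM2 and DCK reached. The count of 3 became 5 without Olaparib replicate 1 and 1 without Olaparib replicate 2 or 3 or DMSO replicate 2 or 3. In a bulk sample, fewer cells of a type and less RNA per cell cannot be told apart.

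**Figure D1:**
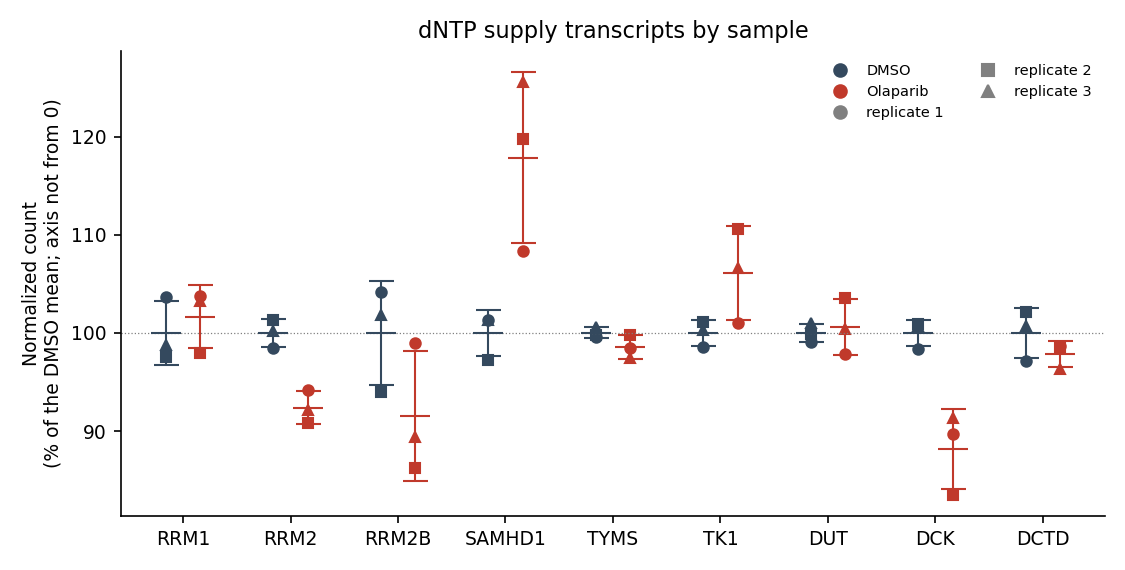
Normalized counts of the 9 transcripts in each sample, as a percentage of the gene's DMSO mean (vertical axis, not from 0), with the mean and SD of each group of 3 as bars and the replicate number as the marker. SAMHD1 lay above its DMSO samples in all 3 Olaparib samples and RRM2 and DCK below them, whereas the groups overlapped for the other 6.

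**Figure D2:**
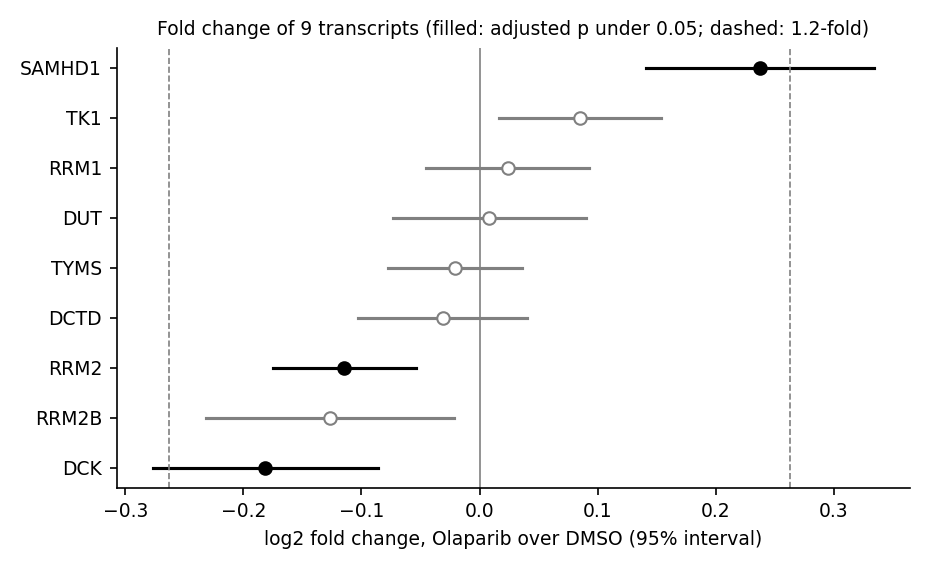
Log2 fold change of Olaparib over DMSO (horizontal axis) for each transcript with its 95% interval, filled where the adjusted p was under 0.05, with dashed lines at a 1.2-fold difference. Only the intervals of SAMHD1 and DCK reached a dashed line, and their point estimates of 0.24 and -0.18 lay inside it.

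The promoters of the 3 transcripts with a call are shown because they are the regions from which the measured mRNAs start. Each sequence is the 250 bases before the RefSeq start site on GRCh38.p14, 5′ to 3′ on the strand of the gene, and that start is also the start of the MANE Select transcript in GENCODE. The regions are chr20:36951709-36951958 on the minus strand for SAMHD1, chr2:10122489-10122738 on the plus strand for RRM2 and chr4:70993399-70993648 on the plus strand for DCK. Exons of 7 other annotated SAMHD1 transcripts, 3 of RRM2 and 3 of DCK reach into these windows. Capitals mark matches, on either strand, to the motif letters searched.
SAMHD1: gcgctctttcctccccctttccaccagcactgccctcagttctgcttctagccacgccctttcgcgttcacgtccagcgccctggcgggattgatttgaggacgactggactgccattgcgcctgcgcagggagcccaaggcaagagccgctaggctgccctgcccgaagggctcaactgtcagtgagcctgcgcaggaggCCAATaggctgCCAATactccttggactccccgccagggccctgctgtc
RRM2: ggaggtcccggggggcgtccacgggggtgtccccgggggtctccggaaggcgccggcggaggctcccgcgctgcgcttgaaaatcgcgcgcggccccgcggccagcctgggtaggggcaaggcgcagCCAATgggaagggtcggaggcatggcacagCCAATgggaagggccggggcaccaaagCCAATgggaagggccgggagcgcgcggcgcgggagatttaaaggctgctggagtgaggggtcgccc
DCK: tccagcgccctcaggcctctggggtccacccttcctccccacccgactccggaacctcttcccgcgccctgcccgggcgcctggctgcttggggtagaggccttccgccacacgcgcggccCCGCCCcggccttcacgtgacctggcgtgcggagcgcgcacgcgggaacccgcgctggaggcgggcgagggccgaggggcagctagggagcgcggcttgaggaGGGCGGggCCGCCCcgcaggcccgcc
The capitals in SAMHD1 are 2 CCAAT boxes that begin 49 and 38 bases before the start, and those in RRM2 are 3 CCAAT boxes at 123, 93 and 66 bases. In DCK they are 3 GC boxes (GGGCGG) at 129, 26 and 18 bases. CCAAT was present in 32.0% and GGGCGG in 42.6% of the 35116 RefSeq promoter windows of the same length.

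Windows were used for 8 of the 9 genes, and none was used for RRM2B. CCAAT was found in 4 of the 8, with RRM1 and TK1 beside SAMHD1 and RRM2, and GGGCGG in 5, namely RRM1, TK1, DUT, DCK and DCTD. The E2F motif letters TTTCCCGC, found in 1.39% of all windows, occurred in TYMS alone, 39 bases before the start, and the second E2F form TTTGGCGC, found in 0.55%, in none of the 8. TTTGAA, the letters of the cell cycle homology region (13.3% of all windows), occurred in RRM1. The interferon-stimulated response element letters GAAANNGAA (6.88% of all windows) were in none of the 8 windows. These are matches of letters only, and the absence of letters from a window of this length says nothing of the factors concerned.

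Among the ribonucleotide reductase subunits, RRM2 fell and RRM1 did not pass the test. RRM2 (ENSG00000171848, chr2:10120698-10211725) had 7597, 7816 and 7726 normalized counts in DMSO replicates 1, 2 and 3 and 7263, 7008 and 7106 in the Olaparib replicates. All 3 Olaparib samples lay below the lowest DMSO sample, with means of 7125 ± 129 against 7713 ± 110 (SD, n = 3). The log2 fold change was -0.11 ± 0.030 (SE, 95% interval -0.18 to -0.053, adjusted p = 0.0246, edgeR), a change of -7.62% with an interval from -11.4% to -3.64%. The call rested on several libraries: without Olaparib replicate 2 or 3 or DMSO replicate 2 or 3 the adjusted p was 0.102, 0.0823, 0.154 and 0.0953, although the log2 fold change stayed between -0.13 and -0.10.

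RRM1 (ENSG00000167325, chr11:4094707-4138932) had 5401, 5084 and 5144 normalized counts in DMSO and 5404, 5102 and 5379 in Olaparib samples. The groups covered nearly the same range, with a log2 fold change of 0.024 ± 0.034 (SE, 95% interval -0.045 to 0.093, adjusted p = 0.818, edgeR). RRM2B (ENSG00000048392), the p53-inducible small subunit, had 1078, 973 and 1054 normalized counts in DMSO and 1025, 893 and 926 in Olaparib samples. Its groups overlapped through Olaparib replicate 1, and the log2 fold change of -0.13 ± 0.052 (SE, 95% interval -0.23 to -0.021) had an adjusted p of 0.21 in edgeR. Without Olaparib replicate 1 the adjusted p was 0.0307 and the log2 fold change -0.18.

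SAMHD1 (ENSG00000101347, chr20:36890229-36951893) had the largest log2 fold change of the 9 transcripts in size. It had 1430, 1372 and 1430 normalized counts in DMSO replicates 1, 2 and 3 and 1529, 1689 and 1771 in the Olaparib replicates. The Olaparib samples were all higher and also more spread, with means of 1663 ± 123 against 1411 ± 33.3 (SD, n = 3). The log2 fold change was 0.24 ± 0.047 (SE, 95% interval 0.14 to 0.33, adjusted p = 0.00201, edgeR), an increase of 17.9% with an interval from 10.3% to 26.0%. Leaving out Olaparib replicate 3, the highest sample, gave 0.19 and an adjusted p of 0.0663, and SAMHD1 kept its call without each of the other 5 libraries.

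Among the 5 transcripts whose level followed that of SAMHD1 most closely over the 6 samples were IFIT1 (Pearson r = 0.997), FGFR1 (0.995), OAS1 (0.993) and OAS2 (0.992), out of 13602 genes with a mean of at least 1 CPM. The r values are given as a description, since the points share their treatment groups and were ranked over all these genes, of which 87 exceeded 0.95. Relative to its own DMSO mean, the log2 CPM of SAMHD1 was 0.12, 0.26 and 0.33 higher in Olaparib replicates 1, 2 and 3. For IFIT1 these differences were 0.50, 1.16 and 1.33, and for OAS2 0.45, 1.03 and 1.25. SAMHD1 and these 4 genes were lowest in Olaparib replicate 1 and highest in Olaparib replicate 3 among the treated samples. This shared order follows from choosing the genes by r over the same samples and is no separate observation. The log2 fold change was 1.04 for IFIT1 (adjusted p = 1.22e-06, edgeR), 0.63 for OAS1 (6.01e-06) and 0.94 for OAS2 (4.53e-07), and 0.20 for FGFR1, whose adjusted p was 0.116.

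**Figure D3:**
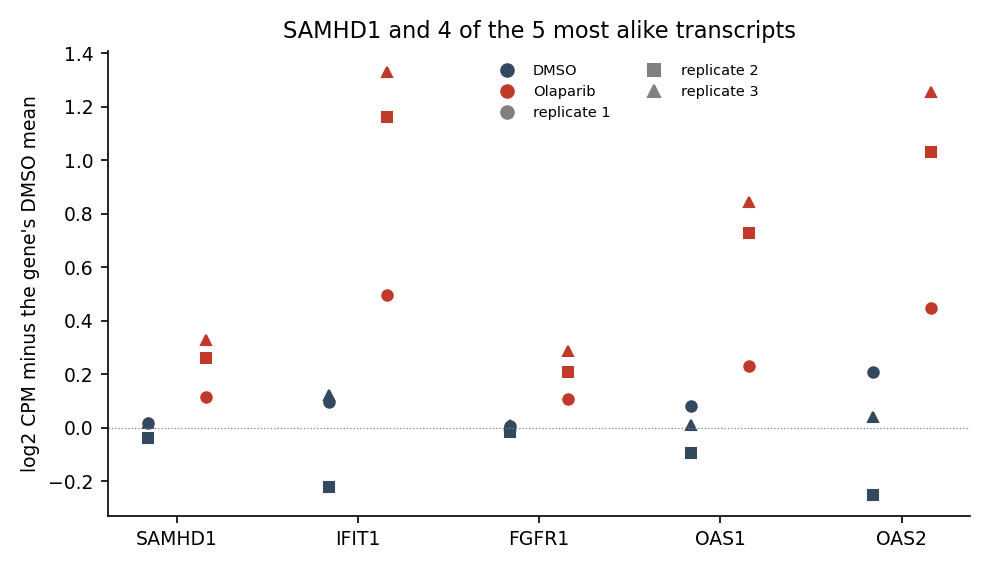
Log2 CPM of SAMHD1 and of 4 of the 5 transcripts most correlated with it, each minus its own DMSO mean (vertical axis), in the 3 DMSO and 3 Olaparib samples, with the replicate number as the marker. In each of the 5 genes shown Olaparib replicate 1 lay lowest and Olaparib replicate 3 highest of the treated samples, an order that follows from their choice by r. The values reached 0.33 for SAMHD1 and 1.33 for IFIT1.

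Of the salvage kinases, DCK fell and TK1 did not pass the test. DCK (ENSG00000156136, chr4:70992538-71030914), which also activates several nucleoside drugs, had 1048, 1074 and 1072 normalized counts in DMSO and 955, 890 and 972 in Olaparib samples. No Olaparib sample reached the lowest DMSO sample, and the means were 939 ± 43.7 against 1065 ± 14.6 (SD, n = 3). The log2 fold change was -0.18 ± 0.047 (SE, 95% interval -0.28 to -0.086, adjusted p = 0.0219, edgeR), a change of -11.8% with an interval from -17.5% to -5.80%. The adjusted p was 0.0598 with DESeq2 and 0.106, 0.0784, 0.0855 and 0.0739 without Olaparib replicate 2 or DMSO replicate 1, 2 or 3. Exons of MOB1B on the same strand overlap 6.41% of the DCK exon length. MOB1B had 705 to 837 counts per library and a log2 fold change of 0.015.

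TK1 (ENSG00000167900, chr17:78174091-78187233) had 5276, 5413 and 5370 normalized counts in DMSO and 5410, 5920 and 5707 in Olaparib samples. Olaparib replicate 1 lay within the DMSO range and the other two above it. The log2 fold change was 0.085 ± 0.034 (SE, 95% interval 0.016 to 0.15) with an adjusted p of 0.191 in edgeR, and with Olaparib replicate 1 left out these became 0.12 and 0.0325.

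The transcripts of the route from dCMP to thymidylate showed no call. TYMS (ENSG00000176890, chr18:657653-673578) had 10230, 10258 and 10341 normalized counts in DMSO and 10118, 10258 and 10014 in Olaparib samples, and the groups overlapped. Its log2 fold change of -0.021 ± 0.028 (SE, 95% interval -0.078 to 0.036, adjusted p = 0.806, edgeR) corresponds to an interval from -5.24% to 2.55%. TYMS shares 47.9% of its exon length with the opposite-strand genes ENOSF1 and TYMSOS. ENOSF1, which is transcribed across the end of TYMS, had 1559, 1662 and 1731 counts in DMSO and 1423, 1435 and 1459 in Olaparib libraries (log2 fold change -0.17, adjusted p = 0.0156, edgeR). The kit named in the study's methods marks strand, the labels name a different kit, the strand setting of the counting is not given in the sources used here, and the share of ENOSF1 reads in the TYMS counts was not tested.

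DUT (ENSG00000128951, chr15:48331011-48343373) had 2060, 2076 and 2099 normalized counts in DMSO and 2034, 2152 and 2086 in Olaparib samples. Its log2 fold change of 0.0082 ± 0.040 (SE, 95% interval -0.074 to 0.090, adjusted p = 0.953, edgeR) was the smallest of the 9 in size and turned to -0.00080 and -0.0023 with upper-quartile scaling and with total counts only. DCTD (ENSG00000129187, chr4:182890060-182917936) had 3748, 3942 and 3889 normalized counts in DMSO and 3809, 3804 and 3719 in Olaparib samples. The DCTD groups overlapped, with a log2 fold change of -0.031 ± 0.035 (SE, 95% interval -0.10 to 0.041, adjusted p = 0.757, edgeR). For RRM1, TYMS, DUT and DCTD the 95% intervals of the log2 fold change all lay between -0.10 and 0.093. The antisense genes that overlap exons of SAMHD1, DUT and RRM1 had 0 to 11 counts per library, and the listed processed copies of RRM2, TYMS and DUT had 0 to 3 counts per library.

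Levels were compared between genes only as CPM per kb of the MANE Select transcript. In DMSO the mean level was highest for TYMS at 170 ± 0.955 (SD, n = 3), followed by TK1 at 99.9 ± 1.31, RRM2 at 63.2 ± 0.900, DCTD at 53.5 ± 1.39 and RRM1 at 44.3 ± 1.43. DUT was at 25.9 ± 0.246, DCK at 11.3 ± 0.156, SAMHD1 at 8.10 ± 0.191 and RRM2B at 5.79 ± 0.308. Each gene's 3 DMSO samples lay apart from those of its neighbours in this order. After Olaparib the order of the means was the same, with RRM2 at 58.4 ± 1.06, DCK at 10.0 ± 0.465 and SAMHD1 at 9.55 ± 0.708. The ranges of DCK and SAMHD1 then overlapped, at 9.48 to 10.4 and 8.78 to 10.2. The order depends on the length used: per kb of all annotated exons, RRM2 was at 22.5 in DMSO, below RRM1 at 32.9 and DCTD at 30.8, and SAMHD1 was at 3.48, below RRM2B at 5.13.

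**Figure D4:**
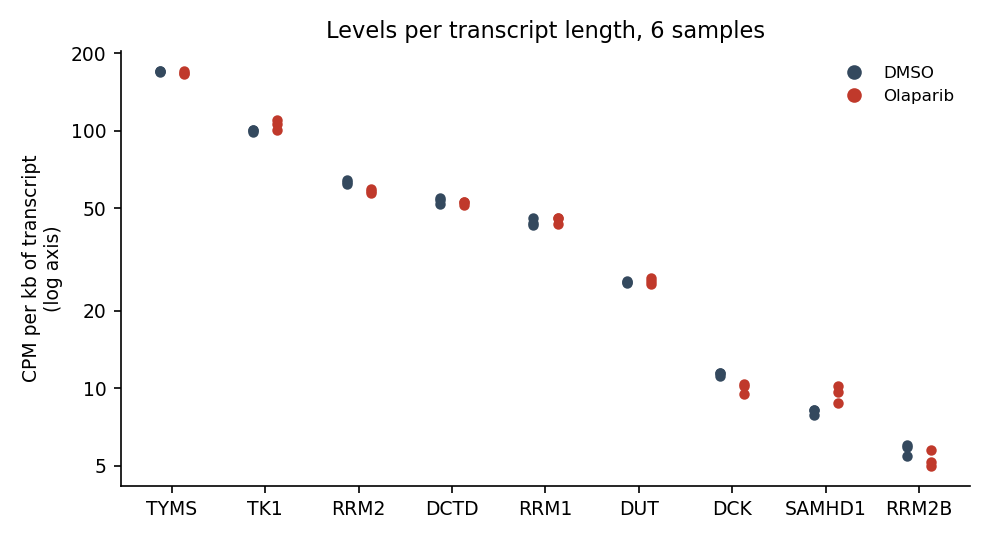
CPM per kb of transcript (vertical log axis) of the 9 transcripts in the 3 DMSO and 3 Olaparib samples, ordered by the DMSO mean. By MANE Select length, levels ran from 170 for TYMS to 5.79 for RRM2B in DMSO, and DCK and SAMHD1 lay apart in DMSO but overlapped after Olaparib.

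Ratios within a sample do not depend on the library scaling and are given as a description without a test. Their size depends on the length used, here that of the MANE Select transcript, but the overlap of the groups does not. Per kb of all annotated exons, RRM2 lay below RRM1 in DMSO, at 22.5 against 32.9. The ratio of RRM2 to RRM1 per transcript length was 1.36, 1.48 and 1.45 in DMSO and 1.30, 1.32 and 1.27 in Olaparib samples, with means of 1.43 ± 0.0652 and 1.30 ± 0.0254 (SD, n = 3). The groups did not overlap in this ratio, whereas the ratio of RRM2 to RRM2B was 10.9 ± 0.743 in DMSO and 11.0 ± 0.585 in Olaparib samples and overlapped. RRM2 to SAMHD1, a synthesis to hydrolysis pair, was 7.58, 8.13 and 7.71 in DMSO and 6.78, 5.92 and 5.73 in Olaparib samples. DCK to SAMHD1 averaged 1.40 ± 0.0469 in DMSO and 1.05 ± 0.0950 after Olaparib, and TK1 to DCK 8.80 ± 0.0312 and 10.6 ± 0.914. Neither of these last pairs overlapped, nor did TYMS to TK1, which contains none of the 3 transcripts with a call. It was 1.72, 1.68 and 1.71 in DMSO and 1.66, 1.54 and 1.56 in Olaparib samples. RRM2 and DCK each lay wholly below and SAMHD1 wholly above their DMSO samples. Their ratios to SAMHD1 therefore could not overlap and add nothing to the single transcripts. The share of other gene pairs without overlap was not taken.

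The transcripts most like RRM2 over the 6 samples were EIF2B5 (r = 0.995), HNRNPA2B1 (0.993), TMC5 (0.991), the unnamed gene ENSG00000270168 (0.988) and TXNRD1 (0.988). Of these, TXNRD1 (log2 fold change -0.16, adjusted p = 1.90e-04, edgeR) and HNRNPA2B1 (-0.098, adjusted p = 0.0263) passed the test. The transcripts most like TYMS were PLBD2 (r = 0.995), BTN3A3 (0.992), ASTN2 (0.988), TRNAU1AP (0.986) and TMEM216 (0.983), and none of these 5 passed it. As for SAMHD1, these r values come from 6 samples in the same 2 conditions and were ranked over 13602 genes.

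Among 68 tested genes of the wider nucleotide supply, 4 were called higher and 1 lower, against 2.15% and 1.21% of all genes. Of the 8881 well-counted genes, 358 were called higher and 163 lower, 5.87% in both directions together. The median log2 fold change was 0.024 for the 68 genes, -0.0042 over all genes and 0.0063 over the well-counted genes. The largest change among the 68 was that of CMPK2, a mitochondrial kinase of dCMP and dUMP. It had 143, 125 and 115 normalized counts in DMSO and 153, 171 and 202 in Olaparib samples (log2 fold change 0.46, adjusted p = 0.0142, edgeR). Its exons partly overlap RSAD2 on the opposite strand. IMPDH1, which commits IMP to guanine nucleotides, was called higher at 0.13 (adjusted p = 0.0399, edgeR) and was the 1 called gene of 13 in de novo purine synthesis. NT5C2, a cytosolic nucleotidase, was called higher at 0.10 (0.0394) as 1 of 16 genes of breakdown and pool cleaning. Exons of CNNM2 and INA on the opposite strand overlap 34.8% of the NT5C2 exon length, and their share in its counts was not tested. The nucleoside transporter SLC29A1 was called higher at 0.14 (0.0483) as 1 of 6 transporters.

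CMPK2 was the 1 called gene of 16 nucleoside and nucleotide kinases, whose median log2 fold change was 0.011. No gene was called in de novo pyrimidine synthesis (5 genes, largest UMPS at 0.076, adjusted p = 0.373) or in purine base salvage (2 genes, larger APRT at 0.072, adjusted p = 0.439), both from edgeR. At an unadjusted p under 0.05 both lists also held 0 genes. The 5 calls of the wider pathway were sensitive to single libraries, since without DMSO replicate 2 or without DMSO replicate 3 none of the 68 genes was called, without Olaparib replicate 3 there was 1, and without Olaparib replicate 2 or DMSO replicate 1 there were 3. With upper-quartile scaling or total counts only, 2 of the 68 were called.

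Genes of the systems that act on these enzymes as proteins were looked at next. RRM2 is degraded through cyclin F and the anaphase-promoting complex, and SAMHD1 is phosphorylated by cyclin-dependent kinases. Of the 6 genes listed, CDK1 was called higher at a log2 fold change of 0.18 (adjusted p = 1.95e-04, edgeR) and CDC20 at 0.17 (3.71e-04). Over all genes 3.36% were called, and over the well-counted genes 5.87%. CCNF, which encodes cyclin F (0.033, adjusted p = 0.787, edgeR), FZR1 (0.11, 0.163), CDK2 (0.085, 0.180) and CCNA2 (0.077, 0.275) had no call. The median of the 6 was 0.097, and an action of CDC20 on RRM2 was not tested. CDK1 had 11099, 10430 and 10831 normalized counts in DMSO and 12730, 11884 and 12115 in Olaparib samples, and the groups did not overlap. The groups did not overlap in 5 of the 6 listed genes, against 19.3% of all genes and 25.7% of the well-counted genes. CDK1 and CDC20 are also on the G2/M list below.

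RRM2, RRM1 and TYMS belong to the S phase gene list of Seurat and were taken out of it before it was used as a comparison. Of the remaining 39 S phase genes tested, 5 were called lower and 0 higher by edgeR, 12 and 0 at an unadjusted p under 0.05, and the median log2 fold change was -0.043. Over all 21729 genes, 1515 were lower and 1702 higher at an unadjusted p under 0.05, and over the 8881 well-counted genes 791 and 1161. By adjusted p, 1.21% of all genes were called lower and 2.15% higher, and of the well-counted genes 163 and 358. The 5 were CCNE2 (log2 fold change -0.38, adjusted p = 3.65e-05), a cyclin of S phase entry, DTL (-0.32, 6.01e-06), a substrate receptor for proteolysis in S phase, the helicase subunit MCM6 (-0.22, 9.91e-05), the uracil glycosylase UNG (-0.20, 2.16e-04) and UBR7 (-0.17, 0.0217). Of 54 G2/M genes, 17 were called higher and 0 lower, 27 and 3 at an unadjusted p under 0.05, with a median log2 fold change of 0.077. The G2/M genes with the largest changes were TOP2A (0.29, adjusted p = 1.48e-07), CKAP5 (0.27, 1.16e-07), UBE2C (0.25, 1.18e-06) and HMMR (0.24, 1.76e-06). The others called were CDK1, BIRC5, TPX2, CCNB2, BUB1, TUBB4B, JPT1, CDC20, KIF2C, NCAPD2, AURKA, ANLN and NEK2, with log2 fold changes from 0.095 to 0.18. The share of these list changes in the difference of RRM2, DCK or SAMHD1 was not tested.

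RRM2B is a p53 target, and the other p53 targets were mostly without a call. Of 22 tested, 0 were called higher and 1 lower, ZMAT3 at -0.21 (adjusted p = 0.0128, edgeR), and the median log2 fold change was -0.0049. CDKN1A had the largest positive log2 fold change of the list, 0.28, with an adjusted p of 0.208 at a mean of 118 normalized counts in DMSO and 143 in Olaparib samples.

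**Figure D5:**
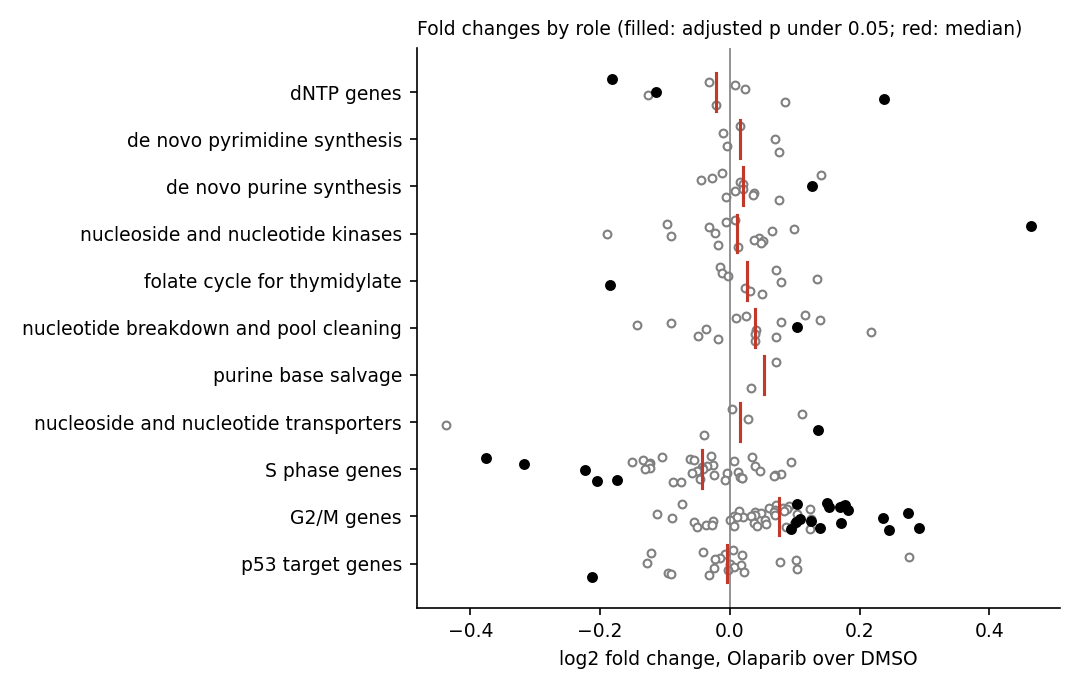
Log2 fold change of Olaparib over DMSO (horizontal axis) of each gene by role, with the list median in red and genes with an adjusted p under 0.05 filled. The 9 dNTP genes had calls in both directions and a median of -0.021, the S phase list had calls only below 0 and the G2/M list only above 0.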

How the data were processed

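The study's libraries were made from poly(A)-selected RNA with a kit that, by the study's methods, marks strand (the labels name a different kit). The authors deposited a table of raw counts per gene, whole numbers without normalization. They trimmed adapters with Trimmomatic, mapped reads with STAR to GRCh38 (hg38 in the submitters' processing notes), identified duplicates with Picard and counted genes with featureCounts. Whether duplicates were removed is not given in the sources used here. Gene counts do not resolve isoforms.

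Genes were kept if their summed count exceeded 10, the filter of the study's methods. Libraries were scaled by TMM, a choice made here. Normalized counts are TMM-scaled CPM times the mean library size. Olaparib was compared with DMSO with edgeR's quasi-likelihood test (edgeR 4.0.16, R 4.3.3) with Benjamini-Hochberg adjustment over all 21729 genes, without a replicate block. The study used DESeq2, which was run here as an alternative (DESeq2 1.42.0), as were limma voom (limma 3.58.1), other scalings, other filters and leaving out each library. Scripts were tested on simulated data.

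Names and coordinates came from GENCODE release 44, which held 96.0% of the tested identifiers. S phase and G2/M lists came from Seurat 5.3.0 and the other lists from general knowledge. All 9 members were named with their values, as was each gene of the pathway and comparison lists with an adjusted p under 0.05. Where such a list had none, its gene with the largest absolute log2 fold change at a mean count of at least 20 was named. The marker lists were outside this rule. CDKN1A, CCNF, FZR1, CDK2, CCNA2 and the markers VWF, PAX8 and CDH5 were named after their values were seen. For SAMHD1, RRM2 and TYMS the 5 genes of highest r of log2 CPM (prior count 2) were named. The members and lists were chosen with earlier results of these data known. Results for 2 genes that these rules select are not reported here. UHRF1 was not analysed here, and SLC28A2 did not pass the count filter.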

Additional observations from a re-analysis of the deposited data

How the results depend on the processing

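The count of 3 called among the 9 dNTP genes was 2 to 3 with the other tools, scalings and filters, 0 with the fold condition of log2(1.2), and 1 to 5 when 1 library was left out. The log2 fold change without 1 library ranged from 0.19 to 0.30 for SAMHD1 (adjusted p 8.89e-05 to 0.0663, called in 5 of 6 such fits), -0.13 to -0.10 for RRM2 (0.0143 to 0.154, called in 2 of 6), -0.21 to -0.14 for DCK (0.0195 to 0.106, called in 2 of 6), -0.18 to -0.085 for RRM2B and 0.055 to 0.12 for TK1 (each called in 1 of 6). With DESeq2, DCK was at -0.18 with an adjusted p of 0.0598. DUT, whose interval spans 0, changed sign to -0.00080 with upper-quartile scaling, -0.0023 with total counts only and -0.012 without Olaparib replicate 2, and ranged from -0.012 to 0.029 when 1 library was left out. The cause of these changes was not tested, beyond the smaller number of samples where a library was left out.

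The count of 5 called among the 68 wider pathway genes was 2 with upper-quartile scaling, 2 with total counts only, 1 with the fold condition and 0 to 6 when 1 library was left out. Over all genes the count of 730 was 520 with DESeq2, 671 with limma voom and 398 to 870 when 1 library was left out. Scaling moved the median log2 fold change of all genes from -0.0042 to -0.015 at most.

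Deviations from the group mean in same-numbered Olaparib and DMSO samples had correlations of -0.12, 0.18 and -0.19 over 13603 genes. Those of differently numbered samples ran from -0.246 to 0.335. Because the same-numbered values lie inside that range, they cannot decide whether the numbers pair the samples. With the replicate number as a block, 3 of the 9 dNTP genes (1 higher, 2 lower), 9 of the 68 pathway genes (7 higher, 2 lower) and 1322 of all genes were called. RRM2 was then at -0.11 (adjusted p = 0.0036), SAMHD1 at 0.24 (6.71e-04) and DCK at -0.18 (0.0079), and no dNTP gene changed its call. The well-counted background of 500 normalized counts was chosen after seeing the data. Differences of the size seen here rest on 3 samples per group, and a gene without a call may still differ within its interval.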
